A study of Homo sapiens with 16 samples.

Results

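The mRNA of 10 genes that carry a p53 response toward apoptosis was measured in SH-SY5Y cells, a human neuroblastoma cell line, with and without doxorubicin, a drug that damages DNA. The genes were BAX, BBC3, PMAIP1 and APAF1 of the mitochondrial route, the death receptors FAS, TNFRSF10A and TNFRSF10B, the caspase scaffold PIDD1, the nuclease AEN and the stress protein TP53INP1. They were taken by name, through their Ensembl identifiers, and all 10 were found among the 26410 genes measured. No expression value served as a criterion, although earlier results of these data were known when the genes were chosen.

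Cells had been transfected with a Cas9 vector carrying either a guide RNA against TRPM2, a calcium channel, or a scrambled guide, each together with a donor vector that holds GFP and puromycin markers between stretches of the TRPM2 locus. After puromycin selection, single-cell clones were grown. Clones KO11 and KO28 are labelled TRPM2 KO, and Scr13 and Scr16 are the scrambled controls, so that every clone went through the donor vector and the same selection and each genotype rests on 2 clones. Each clone was kept for 24 h in regular medium or in medium with doxorubicin, and was sequenced in 2 replicates, which gives 4 groups of 4 libraries (Scr untreated, KO untreated, Scr doxo, KO doxo) and 16 libraries in all. Sample labels give the drug at 0.3 µM, whereas the deposited design text gives 3 µM. Polyadenylated RNA was counted over whole genes, with between 10481177 and 25086085 reads on genes per library. Levels are given as normalized CPM, reads scaled for depth and for library composition, with SD over 4 libraries unless stated. In these units, 3 reads, taken as the floor for a gene without reads, were worth 0.118 to 0.285 depending on the library, a limit for counting error alone. Since these are bulk libraries, fewer cells that use a gene and less RNA per cell cannot be told apart.

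p53 is a transcription factor that is held at a low level by MDM2 and accumulates after DNA damage. Its target genes stop the cell cycle, repair DNA or promote cell death. In the mitochondrial route, the small BH3-only proteins BBC3 (PUMA) and PMAIP1 (NOXA) block survival proteins of the BCL2 family, BAX opens the outer membrane of the mitochondrion, and cytochrome c then assembles with APAF1 into the apoptosome. FAS and the TRAIL receptors TNFRSF10A and TNFRSF10B start apoptosis from the cell surface. PIDD1 forms the PIDDosome, a platform for CASP2, AEN digests DNA and RNA in dying cells, and TP53INP1 assists p53 in the nucleus and takes part in autophagy.

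The label of neuroblastoma was checked against adrenergic markers, which the sympathetic lineage of this tumor expresses. All 12 were measured, 10 or 11 of them at 1 normalized CPM or more in each library, and their summed level lay between 6664 and 8023 normalized CPM, with DBH, an enzyme of noradrenaline synthesis, or the transcription factor HAND2 the most abundant. TH was the exception among the defining markers, with a mean of 0.328 normalized CPM and 0 reads in 6 of the 16 libraries. Of the 11 adrenergic markers tested, 1 was called higher and 1 lower in untreated KO, where 2.3% and 2.54% of all genes were (limma), and 2 and 1 after doxorubicin, where 4.52% and 4.17% were. Of 8 blood and endothelial markers, KDR was the one among the genes analysed, with 0 reads in 12 libraries and a highest value of 1.33 normalized CPM.

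TRPM2 itself was read first as a check of the genotype labels. Untreated KO11 had 1.93 and 2.23 normalized CPM, and there were 1.41 and 2.19 in KO28, 0.118 and 0.115 in Scr13, and 0 in both replicates of Scr16. After doxorubicin it had 1.22 and 1.83 in KO11, 1.37 and 0.658 in KO28, 0.0594 and 0.0631 in Scr13, and 1.33 and 0.390 in Scr16. TRPM2 reads were thus higher in the untreated libraries labelled KO, against the label, and the groups overlapped after doxorubicin. The untreated log2 fold change was 1.47 (SE 0.27, adjusted p = 0.00154 by limma). Among untreated libraries, only those labelled KO reached the level that the filter for testing required. That p-value is therefore no independent evidence for the direction. The direction rests on the values above, where the untreated groups did not overlap. Reads over the whole gene do not show whether the targeted sequence was intact, and every direction below is that of libraries labelled KO relative to libraries labelled Scr.

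Start sequences were searched for the half-site of the p53 motif, since p53 binds DNA at pairs of such half-sites. RefSeq windows on GRCh38.p14, from 250 bases before to 50 bases after a start, were held for 7 of the 10 genes (9 windows, of which FAS has 3). The half-site reads the same on both strands, and its C at the fourth and its G at the seventh of 10 bases were required. Adjacent pairs with at most 3 mismatches over 20 bases were found in 3 of the 9 windows, those of FAS, AEN and PMAIP1, and in 1.12% of all 35116 windows. They are shown with 5 bases on each side, the pair in capitals.

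FAS: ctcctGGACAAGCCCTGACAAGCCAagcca

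AEN: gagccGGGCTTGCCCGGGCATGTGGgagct

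PMAIP1: gtcggGAGCGTGTCCGGGCAGGTCGcgctc

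The FAS stretch is chr10:88991304-88991333 on the + strand, its pair begins 122 bases before an alternative start and has 2 mismatches, both in the second half-site. In GENCODE 29 it lies 727 bases inside FAS, in an exon of a FAS transcript, and also in an untranslated exon of ACTA2 on the opposite strand. The AEN stretch is chr15:88621301-88621330 on the + strand, 34 bases before the RefSeq start and in an untranslated exon of AEN in GENCODE 29, with 2 mismatches. That of PMAIP1 is chr18:59899806-59899835 on the + strand, 185 bases before the start and outside any GENCODE gene, with 3 mismatches. A single half-site with at most 1 mismatch was held by 6 of the 9 windows and by 45.1% of all windows, and a perfect one by 2 of the 9 and by 6.63%. For comparison, the bases upstream of BBC3 (chr19:47232767-47232917, minus strand, 151 bases) and of BAX (chr19:48954625-48954814, plus strand, 190 bases), which overlap no GENCODE gene, hold no pair. The capitals in BBC3 mark its single half-site with at most 1 mismatch, at 173 bases before the start, and BAX has none.

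BBC3: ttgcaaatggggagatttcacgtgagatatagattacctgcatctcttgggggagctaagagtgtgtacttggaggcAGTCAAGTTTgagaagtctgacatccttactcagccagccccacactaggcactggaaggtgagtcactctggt

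BAX: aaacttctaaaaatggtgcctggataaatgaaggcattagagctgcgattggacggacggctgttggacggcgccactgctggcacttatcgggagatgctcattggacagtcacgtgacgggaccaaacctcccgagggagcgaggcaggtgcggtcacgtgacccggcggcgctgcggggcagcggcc

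These matches describe letters in a window, and binding of p53 was not measured.

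Levels of different genes were compared per kilobase of exon. In untreated Scr libraries, BAX had 21.9 ± 1.59 and TNFRSF10B 17.4 ± 2.98 normalized CPM per kilobase, and the ranges of these leading genes overlapped. AEN, TP53INP1, PMAIP1, PIDD1 and APAF1 followed between 9.51 and 7.48, each overlapping its neighbor in the order. BBC3 came next at 4.77 ± 0.468, apart from the genes above and below it. FAS (0.196 ± 0.0525) and TNFRSF10A (0.0694 ± 0.0689) were the lowest and overlapped each other. In KO doxo libraries, TNFRSF10B (65.6 ± 3.87) and BAX (63.9 ± 3.57) led, and FAS (2.74 ± 0.507) and TNFRSF10A (1.97 ± 0.880) were again lowest. BBC3 moved from rank 8 in untreated Scr to rank 4 in Scr doxo, whereas PMAIP1 moved from rank 5 to rank 8.

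**Figure D1:**
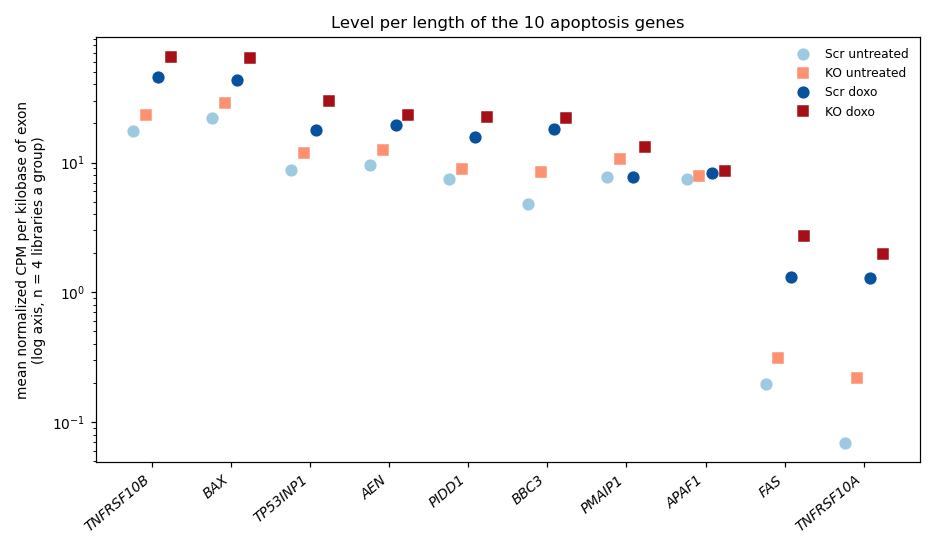
Mean level per kilobase of exon (normalized CPM per kilobase, log axis) of the 10 genes in the 4 groups, each point the mean of 4 libraries, genes ordered by KO doxo. TNFRSF10B and BAX are highest in every group, FAS and TNFRSF10A lowest, and the 4 points of APAF1 lie between 7.48 and 8.64.

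The first comparison asked how doxorubicin changed these genes within each genotype. In both Scr and KO libraries, 8 of the 10 genes rose, with log2 changes up to 1.87 in Scr and 2.46 in KO, and only PMAIP1 and APAF1 did not pass the test. All 4 doxo libraries lay above all 4 untreated libraries for those 8 genes, in each genotype. Among all 15325 genes tested with limma (moderated test on log2(normalized CPM + 1), Benjamini-Hochberg adjusted p under 0.05), 6.53% were called higher in Scr and 9.62% in KO, 4.99% and 7.11% lower, and non-overlapping groups with doxo higher were found for 8.45% and 10.7%. The median log2 change of the 10 genes was 1.03 in Scr and 1.31 in KO, beside -0.012 and 0.019 over all genes tested.

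The death receptors FAS and TNFRSF10A started near the limit of detection. FAS had 0.984 and 0.864 normalized CPM in untreated Scr13, 0.982 and 0.511 in Scr16, 2.15 and 1.20 in KO11 and 1.21 and 0.729 in KO28. After doxorubicin it had 6.30 and 7.44 in Scr13, 3.90 and 4.61 in Scr16, 12.6 and 11.1 in KO11, and 13.9 and 8.91 in KO28. Every doxo library was above every untreated library, and the ratio of the means was 6.66 in Scr (65 reads untreated and 336 after doxorubicin over the 4 libraries) and 8.80 in KO (87 and 735 reads). Log2 changes were 1.81 (SE 0.25, adjusted p = 5.5e-06) and 2.46 (SE 0.25, adjusted p = 1.2e-08, both limma with Benjamini-Hochberg adjustment). Over the alternatives, the FAS log2 change ran from 0.84 (pseudocount 5) to 2.74 (DESeq2) in Scr and from 1.39 (pseudocount 5) to 3.12 (pseudocount 0.1) in KO, and it passed the test in each. ACTA2, smooth muscle actin, overlaps exons of FAS on the opposite strand, and how strand was used in counting is not given in the sources used here. It rose as well, from 8.97 ± 3.24 to 54.9 ± 13.9 normalized CPM in Scr and from 29.2 ± 3.42 to 113 ± 8.88 in KO, and its part in the FAS reads was not tested.

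TNFRSF10A, a TRAIL receptor, had 0.354 and 0.403 normalized CPM in untreated Scr13, 0.0614 and 0 in Scr16, 1.10 and 0.723 in KO11, and 0.738 and 0 in KO28. After treatment the values were 6.18 and 5.30 in Scr13, 1.24 and 2.53 in Scr16, 3.84 and 5.04 in KO11, and 4.71 and 9.63 in KO28. No untreated library reached any doxo library of its genotype, although untreated Scr libraries held only 17 TNFRSF10A reads together and 2 of them were at or under the floor. The log2 change was 1.87 in Scr (SE 0.33, adjusted p = 2.1e-04) and 2.03 in KO (SE 0.33, adjusted p = 4.2e-05). TNFRSF10A passed the filter of 1 normalized CPM in at least 4 of 16 libraries through its doxo libraries. Among untreated libraries, only KO11 replicate 1 (1.10) reached that level. FAS also needed its doxo libraries to pass this filter. Both genes were still called in each genotype with no filter on low values. The size of the TNFRSF10A changes rests on the pseudocount of 1. The ratio of the means was 18.6 in Scr and 9.06 in KO, and over the alternatives the TNFRSF10A log2 change ran from 0.72 (pseudocount 5) to 4.20 (DESeq2) in Scr and from 0.91 (pseudocount 5) to 3.37 (pseudocount 0.1) in KO. Which genotype had the larger change thus turned with the setting. Without clone Scr13, the change in Scr was 1.45 and missed the threshold (adjusted p = 0.0663, limma). TNFRSF10B, the more abundant TRAIL receptor, rose from 112 and 86.3 (Scr13) and 76.8 and 84.1 (Scr16) to 246 and 267 and to 196 and 224 normalized CPM. In libraries labelled KO it rose from 133 and 115 (KO11) and 124 and 104 (KO28) to 355 and 350.0 and to 310.5 and 337. These are 2.60-fold and 2.84-fold higher means, with log2 changes of 1.37 and 1.50 (SE 0.10 each). RHOBTB2, whose exons overlap those of TNFRSF10B on the opposite strand, had log2 changes of -0.27 in both genotypes that did not pass the test (adjusted p = 0.0875 and 0.0683 by limma).

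**Figure D2:**
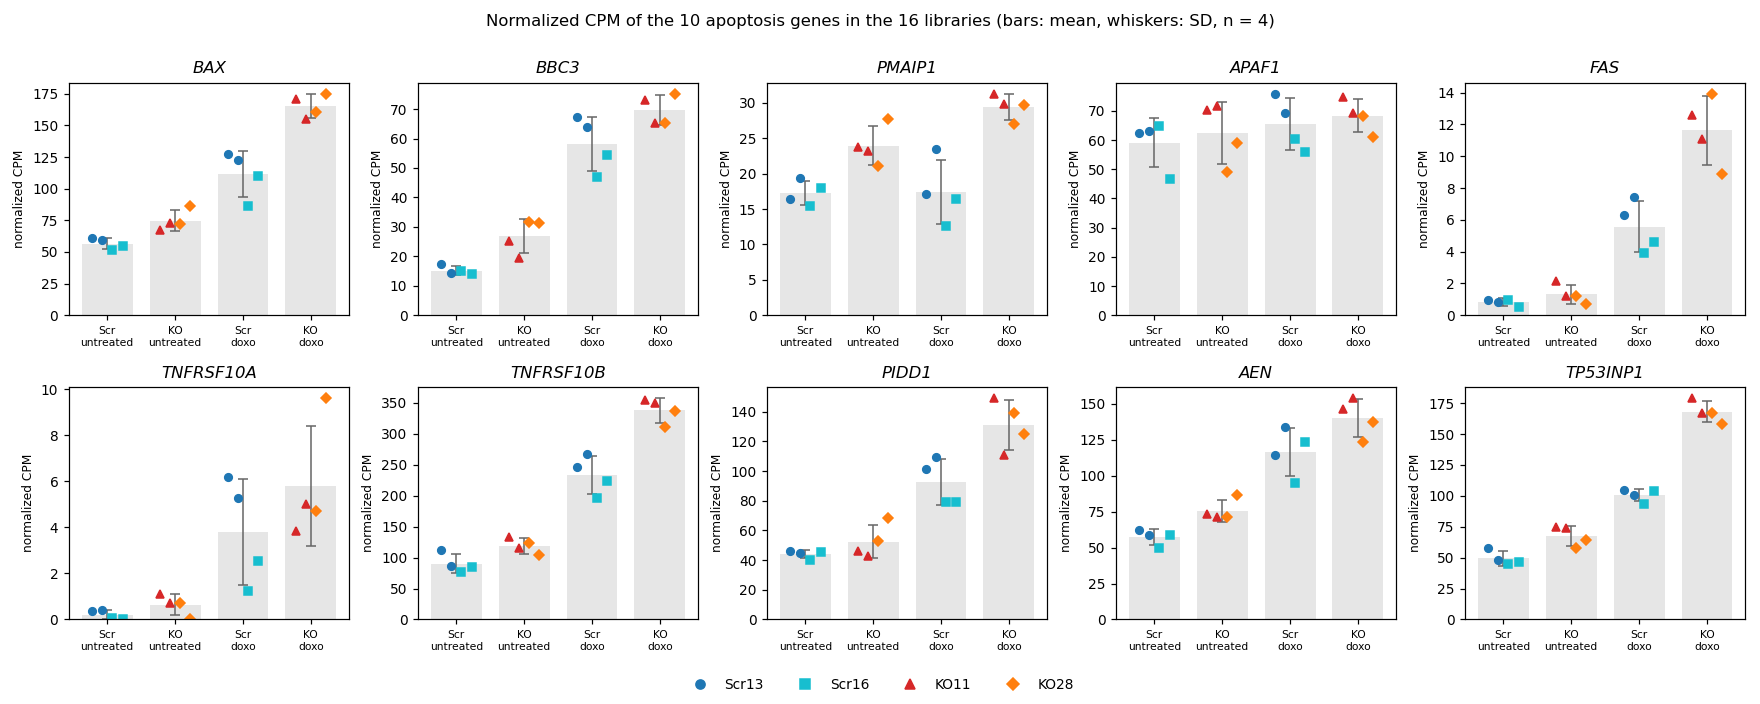
Normalized CPM (vertical axes, each from 0) of each of the 10 genes in the 16 libraries, by group, with symbols for the 4 clones, bars for the mean and whiskers for the SD of 4 libraries. For 8 genes every doxo library lies above every untreated library of the same genotype, and the groups of PMAIP1 and APAF1 overlap.

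In the mitochondrial route, BBC3 showed the widest rise. It went from 17.3 and 14.3 (Scr13) and 14.98 and 14.03 (Scr16) to 67.4 and 63.8 and to 47.1 and 54.4 normalized CPM, a 3.84-fold higher mean. In libraries labelled KO it went from 25.2 and 19.3 (KO11) and 31.7 and 31.4 (KO28) to 73.1 and 65.1 and to 65.4 and 75.2, a 2.59-fold higher mean. Untreated KO libraries thus stood above untreated Scr libraries, while the doxo groups overlapped. BAX, the pore-forming effector, rose from 56.6 ± 4.12 to 112 ± 18.4 normalized CPM in Scr and from 74.7 ± 8.34 to 165 ± 9.22 in KO (log2 changes 0.95 and 1.14, SE 0.10 each).

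PMAIP1 and APAF1 did not follow. PMAIP1, a BH3-only protein like BBC3, had 16.5 and 19.3 normalized CPM in untreated Scr13, 15.5 and 18.0 in Scr16, 23.7 and 23.3 in KO11, and 21.1 and 27.7 in KO28. After doxorubicin it had 17.1 and 23.5 in Scr13, 12.5 and 16.4 in Scr16, 31.3 and 29.9 in KO11, and 26.9 and 29.7 in KO28. In Scr the treated values spread on both sides of the untreated ones. The log2 change was -0.02 in Scr (95% interval -0.32 to 0.28, adjusted p = 0.954) and 0.29 in KO (-0.01 to 0.59, adjusted p = 0.193, limma with Benjamini-Hochberg adjustment). APAF1, the scaffold of the apoptosome, had group means between 59.1 and 68.3 normalized CPM, and its log2 change of 0.14 in each genotype had 95% intervals of -0.10 to 0.39 in Scr and -0.10 to 0.38 in KO. A change of these genes as large as that of BAX in the same genotype, 0.95 in Scr and 1.14 in KO, lies outside those intervals.

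PIDD1 rose from 44.1 ± 2.79 to 92.4 ± 15.4 normalized CPM in Scr and from 52.4 ± 11.3 to 131 ± 16.7 in KO. Exons of RPLP2, a ribosomal protein gene at 486 normalized CPM on average, overlap PIDD1 on the opposite strand, and RPLP2 did not pass the test in either genotype (log2 changes 0.23 and -0.06). AEN, the nuclease, rose from 57.3 ± 5.34 to 117 ± 16.6 in Scr and from 75.6 ± 7.48 to 140.2 ± 13.05 in KO. TP53INP1 had 57.9 and 48.2 normalized CPM in untreated Scr13, 44.7 and 46.7 in Scr16, 74.4 and 74.3 in KO11, and 57.7 and 64.2 in KO28. Treated, it had 104 and 100.4 in Scr13, 93.6 and 104 in Scr16, 179 and 167 in KO11, and 167 and 158 in KO28. TP53INP1 values after doxorubicin were thus separate both from the untreated ones and between the genotypes.

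Clones were also taken one at a time, 2 doxo against 2 untreated libraries each. The median log2 change of the 10 genes was 1.12 in Scr13, 1.04 in Scr16, 1.35 in KO11 and 1.13 in KO28. TNFRSF10B was the most even, with 1.37 in both Scr clones and 1.50 in both clones labelled KO. BBC3 ran from 1.99 in Scr13 and 1.74 in Scr16 down to 1.60 in KO11 and 1.13 in KO28. TP53INP1 ran the other way, from 0.94 in Scr13 and 1.10 in Scr16 to 1.21 in KO11 and 1.40 in KO28. PMAIP1 was the gene whose clones differed in sign, with -0.21 in Scr16 and between 0.16 and 0.37 in the other clones.

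**Figure D3:**
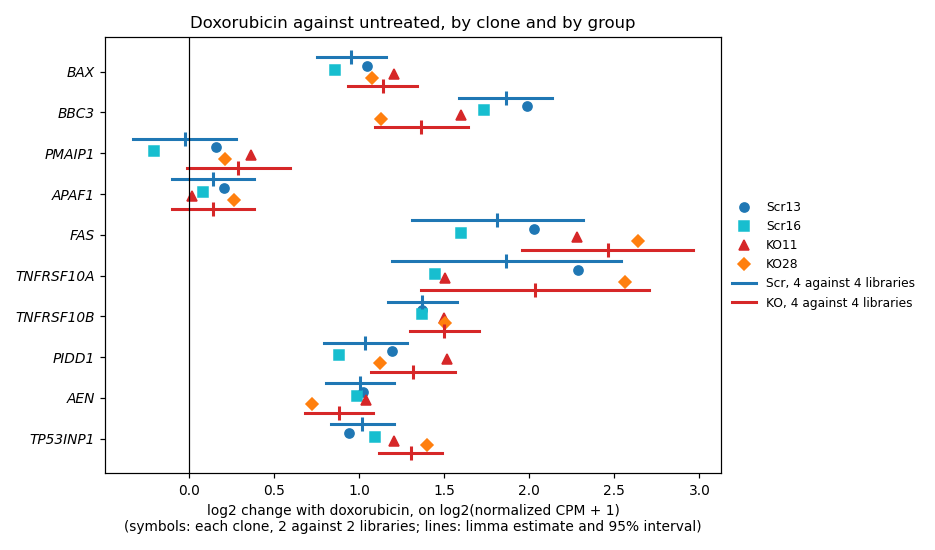
Log2 change with doxorubicin on log2(normalized CPM + 1) (horizontal axis) of the 10 genes, with a symbol for each clone (2 against 2 libraries) and a line for the limma estimate and 95% interval of each genotype (4 against 4 libraries). All 4 clones lie above 0.7 for 8 genes, and those of PMAIP1 and APAF1 lie between -0.21 and 0.37.

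Whether the response differed between genotypes was tested as an interaction over the 16 libraries. None of the 10 genes passed the test (limma, Benjamini-Hochberg adjusted p under 0.05), nor did edgeR or DESeq2 on recovered reads call any, and 3 of 15325 genes did (0.0196%). At an unadjusted p under 0.05 there were 2 of the 10 genes and 1148 of all genes. They were BBC3, whose log2 change was smaller in KO by 0.50 (interaction -0.50, 95% interval -0.88 to -0.11, adjusted p = 0.540), and TP53INP1, whose change was larger (0.29, 0.02 to 0.55, adjusted p = 0.628). FAS had the largest positive estimate, 0.65, with an interval of -0.06 to 1.36. For TNFRSF10B the interval was -0.16 to 0.42 and for BAX -0.10 to 0.47.

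The second comparison set libraries labelled KO against Scr without treatment. The 8 genes that passed the filter were all higher on average in KO, by a median log2 fold change of 0.40 beside -0.0073 over all genes tested, and 5 of them, BBC3, BAX, AEN, TNFRSF10B and TP53INP1, passed the test. Over all 14364 genes, 2.3% were called higher, 2.54% lower and 4.84% in either direction, and 48.2% had a log2 fold change above 0. BBC3 differed most, at 26.9 ± 5.85 normalized CPM in KO against 15.2 ± 1.49 in Scr (log2 fold change 0.77, SE 0.16, adjusted p = 0.00387 by limma). BAX was 1.32-fold, AEN 1.32-fold, TNFRSF10B 1.33-fold and TP53INP1 1.37-fold higher in KO (log2 fold changes 0.39 to 0.45, adjusted p between 0.0125 and 0.0205, limma). PMAIP1 (0.44, adjusted p = 0.0662), PIDD1 (0.22, adjusted p = 0.433) and APAF1 (0.07, adjusted p = 0.863) did not pass by limma. PMAIP1 passed by DESeq2 (0.47, adjusted p = 0.0199), and PIDD1 without clone KO11 (0.44, adjusted p = 0.0459, limma). FAS and TNFRSF10A were under the filter of 1 normalized CPM in at least 4 of 8 libraries, and their groups overlapped.

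Groups did not overlap for BAX, BBC3, PMAIP1 and AEN, 4 of the 10 genes, where 4.29% of all genes tested had KO wholly above Scr, and the 2-sided exact permutation test of 4 against 4 then gave its smallest possible p of 0.0286. For TNFRSF10B, Scr13 replicate 1 (112) exceeded KO28 replicate 2 (104), and for TP53INP1 the same Scr library (57.9) exceeded KO28 replicate 1 (57.7). The number of genes called depended on single clones and libraries. It was 0 without clone Scr16, 2 without clone KO28, 1 without Scr16 replicate 1 and 3 without Scr16 replicate 2. Without clone Scr16, which leaves 2 Scr libraries, the log2 fold changes were 0.71 for BBC3, 0.31 for BAX, 0.32 for AEN, 0.34 for TP53INP1 and 0.27 for TNFRSF10B. Without clone KO28, those of the genes that missed the threshold were 0.52 for BBC3, 0.30 for BAX and 0.34 for AEN. Without clone KO11, TNFRSF10B (0.35, adjusted p = 0.123) and TP53INP1 (0.30, adjusted p = 0.157, limma) missed it, which with PIDD1 gained left 4. With no filter on low values, 0 of the 10 passed (adjusted p of BBC3 0.0501, limma), although 368 of all genes did.

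After doxorubicin, all 10 genes were higher on average in libraries labelled KO, and 6 passed the test: TP53INP1, TNFRSF10B, BAX, PMAIP1, PIDD1 and FAS. Over all 14572 genes tested, 4.52% were called higher, 4.17% lower and 8.69% in either direction, and 52.6% had a log2 fold change above 0. The median log2 fold change was 0.56, beside 0.014 over all genes. Those same 6 genes did not overlap between the groups, against 6.76% of all genes tested. TP53INP1 stood at 168 ± 8.52 normalized CPM in KO and 101 ± 5.08 in Scr (log2 fold change 0.73, SE 0.07, adjusted p = 7.6e-07 by limma). TNFRSF10B was 338 ± 19.9 against 233 ± 30.4, and BAX 165 ± 9.22 against 112 ± 18.4 (adjusted p = 1.7e-04 and 3.9e-04, limma).

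In the main limma fit, FAS showed the largest fold change of the 10 genes after doxorubicin. It had 11.6 ± 2.16 normalized CPM in KO against 5.56 ± 1.61 in Scr (log2 fold change 0.96, SE 0.22, adjusted p = 0.00607, limma). Without clone Scr16, the log2 fold change of TP53INP1 (0.71) was above that of FAS (0.67). ACTA2 on the strand opposite FAS was 113 ± 8.88 against 54.9 ± 13.9. PMAIP1 was 29.4 ± 1.81 against 17.4 ± 4.56 (0.76, SE 0.16, adjusted p = 0.00266, limma), although its change with treatment passed the test in neither genotype. PIDD1 was 131 ± 16.7 against 92.4 ± 15.4 (adjusted p = 0.00334, limma). AEN (0.27, adjusted p = 0.0933), BBC3 (0.27, adjusted p = 0.145), TNFRSF10A (0.58, adjusted p = 0.347) and APAF1 (0.07, adjusted p = 0.777) did not pass. BBC3 did pass without clone Scr13 (0.45, adjusted p = 0.0136), as did TNFRSF10A (1.21, adjusted p = 0.0287), and AEN passed without Scr13 (0.37, adjusted p = 0.0433), without Scr13 replicate 2 (0.34, adjusted p = 0.0357) and with the replicate number as a block (adjusted p = 0.0498, limma). The estimate of TNFRSF10A was -0.05 without clone Scr16.

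**Figure D4:**
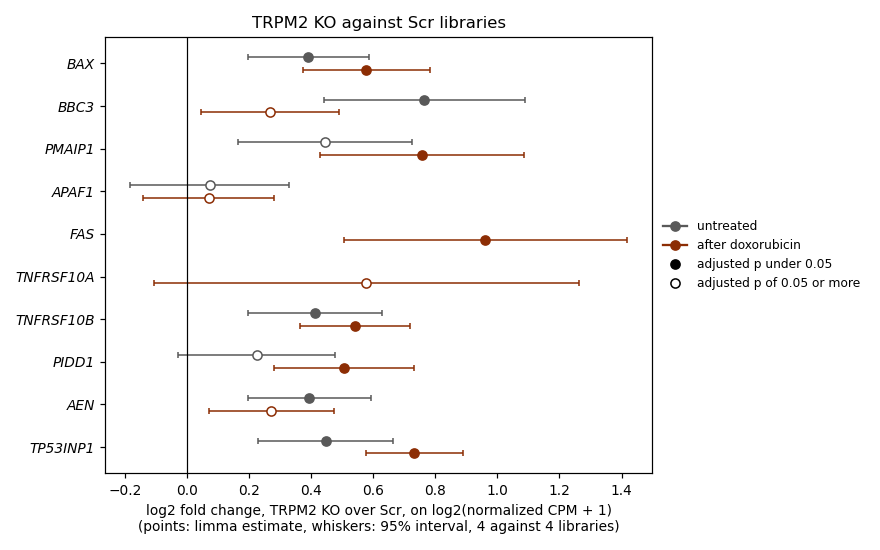
Log2 fold change of libraries labelled TRPM2 KO over Scr on log2(normalized CPM + 1) (horizontal axis) of the 10 genes, untreated (grey) and after doxorubicin (brown), as limma estimates with 95% intervals from 4 against 4 libraries, with filled points at adjusted p under 0.05. All 18 estimates are above 0, and 5 untreated and 6 treated ones are filled.

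Clone Scr16 was the lowest of the 4 clones for 10 of the 10 genes after doxorubicin and for 9 of the 10 without it (APAF1 was lowest in KO28). Its doxo replicate 1 was also the shallowest library, with 10481177 reads. Without Scr16, 4 of the 10 genes were called after doxorubicin, and PIDD1 (log2 fold change 0.30, adjusted p = 0.0893) and FAS (0.67, adjusted p = 0.0658, limma) no longer passed. Leaving out KO11 or KO28 also left 4, and leaving out Scr13 gave 9. Without clone KO11, PMAIP1 (log2 fold change 0.70, adjusted p = 0.0905) and FAS (0.92, adjusted p = 0.124) missed the threshold, and without KO28, PIDD1 (0.49, adjusted p = 0.0645) and FAS (1.00, adjusted p = 0.0583, limma). TP53INP1, TNFRSF10B and BAX passed under each of the 21 alternatives tried.

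Mesenchymal markers also differed between the genotypes, most of them but not all higher in KO. Of 12 such genes 11 were measured, and their summed level was 812 ± 218 normalized CPM in untreated Scr, 1192 ± 128 in untreated KO, 794 ± 140 in Scr doxo and 1267 ± 172 in KO doxo. Single libraries lay at 1116 and 601 in untreated Scr13, 740.1 and 789 in Scr16, 1151 and 1033 in KO11, and 1327 and 1256 in KO28. After doxorubicin they lay at 736 and 643 in Scr13, 971 and 827 in Scr16, 1337 and 1058 in KO11, and 1460 and 1213 in KO28. Untreated groups overlapped, since Scr13 replicate 1 (1116) lay above KO11 replicate 2 (1033). VIM, an intermediate filament protein, was the most abundant marker in all libraries labelled KO, and TWIST1, a transcription factor, in 7 of the 8 Scr libraries. Of the 11 markers tested without treatment, 5 were called higher in KO and 1 lower by limma, beside 2.3% and 2.54% of all genes. Of the 11, 8 had a log2 fold change above 0, with COL3A1, a collagen, at 2.17 and YAP1, a transcriptional co-activator, at 1.91. In either direction, edgeR called 6 of these 11 markers, and DESeq2 called only 3. After doxorubicin, 6 of 10 were called higher and 1 lower by limma, beside 4.52% and 4.17% of all genes. Of these 10, 8 were above 0, with COL3A1 at 2.88 and YAP1 at 2.18, and edgeR and DESeq2 each called 7 markers. The median log2 fold change of the markers was 1.05 without treatment and 1.37 after doxorubicin. COL1A2 was at 0 in 2 libraries. Their part in the differences of the apoptosis genes was not tested.

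Partners of these proteins were examined as lists. Of 25 intrinsic and apoptosome partners, 22 were tested. With doxorubicin, limma called 0 higher and 3 lower in Scr, where 6.53% and 4.99% of all genes were. In KO it called 1 higher and 2 lower, where 9.62% and 7.11% of all genes were. Taken in either direction, the list was called at about the share of all genes, 11.5% in Scr and 16.7% in KO. BID, a BH3-only protein, fell in Scr and KO (log2 changes -0.40 and -0.46), as did BIRC5, an inhibitor of apoptosis that also acts in mitosis (-0.32 and -0.69). CYCS, cytochrome c, fell in Scr (-0.38), and BOK, a relative of BAX, rose in KO (0.84). BAK1, the other pore-forming effector, did not pass (log2 changes 0.07 in Scr and 0.36 in KO). Between genotypes, BCL2, which opposes BAX, and BOK were lower in untreated KO (-0.36 and -0.78), and BCL2L1, another survival protein, was higher in KO after doxorubicin (0.37). Of the 22, 0 were called higher and 2 lower untreated, where 2.3% and 2.54% of all genes were. After doxorubicin 1 was called higher and 0 lower, where 4.52% and 4.17% of all genes were.

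Of 15 death receptor partners, 7 were tested, and limma called 0 of them with doxorubicin in Scr (2 at an unadjusted p under 0.05, 0 by edgeR, 1 by DESeq2) and 0 in KO (1 at an unadjusted p under 0.05, 0 by edgeR and by DESeq2), beside 11.5% and 16.7% of all genes called in either direction. CFLAR, which blocks CASP8 at the receptor, was lower in libraries labelled KO, at 4.90 ± 0.918 against 21.6 ± 4.27 normalized CPM untreated and 7.07 ± 1.29 against 22.1 ± 5.13 after doxorubicin (log2 fold changes -1.93 and -1.51). Its ranges did not overlap in either treatment. TNFRSF1A, a TNF receptor, was also lower (-1.42 and -1.35). Untreated, its mean was 0.954 ± 0.992 normalized CPM in KO, under the filter level of 1, against 3.91 ± 1.57 in Scr. TNFRSF21, a related receptor with a death domain, was higher (0.76 and 0.49). In each treatment, limma called 1 of the 7 higher in KO and 2 lower. Of all genes, 2.3% and 2.54% were called higher and lower untreated, and 4.52% and 4.17% after doxorubicin. In either direction, edgeR and DESeq2 each called 2 of the 7 untreated and 3 after doxorubicin. FADD, the adaptor of the receptors, did not pass in any comparison. Of the 4 PIDDosome partners, CASP2 fell with doxorubicin in both genotypes (-0.38 and -0.37). It was the 1 gene of the 4 called in each, where 4.99% of all genes were called lower in Scr and 7.11% in KO. Between genotypes, 0 of the 4 were called by limma, edgeR or DESeq2, with 0 at an unadjusted p under 0.05. By limma, 4.84% of all genes were called between genotypes without treatment and 8.69% after doxorubicin.

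Regulators of p53 were examined next. MDM2, the ligase that degrades p53, rose by 0.89 in Scr and 1.33 in KO, and PPM1D, a phosphatase that quenches the response, by 0.83 and 1.11. After doxorubicin, MDM2 (0.72) and PPM1D (0.34) were higher in libraries labelled KO. Of the 8 genes tested in this list, these 2 were the ones called higher with doxorubicin (6.53% of all genes in Scr and 9.62% in KO) and between genotypes after it (4.52% of all genes).

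Of 20 other p53 target genes, 18 rose in Scr and 20 in KO, beside 6.53% and 9.62% of all genes, with median log2 changes of 1.45 and 1.56 beside -0.012 and 0.019 over all genes. GDF15, a stress cytokine, rose most (4.36 and 4.53), followed by CDKN1A, the inhibitor of cyclin-dependent kinases (2.58 and 2.43). Between genotypes, 6 were called higher in untreated KO and 15 after doxorubicin (2.3% and 4.52% of all genes), with CDKN1A at 1.27 and 1.13. TP53I3, an oxidoreductase, was the 1 gene of the 20 whose response differed between genotypes (interaction 1.66, SE 0.23, adjusted p = 6.6e-04, limma). It had 16.6 ± 1.67 and 20.6 ± 5.18 normalized CPM in untreated and treated Scr and 16.8 ± 2.95 and 66.3 ± 9.24 in KO.

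A further list of 19 p53-linked death genes, which shares genes such as TP53I3 and BID with the lists above, had 13 genes tested. Of these, 6 rose and 1 fell with doxorubicin in Scr (6.53% and 4.99% of all genes), and 9 rose and 1 fell in KO (9.62% and 7.11%). DRAM1, a lysosomal protein of autophagy, rose by 2.36 and 2.29, and EDA2R, a receptor of the TNF family, by 1.81 and 1.42. Between genotypes, 4 were called higher and 1 lower without treatment (2.3% and 2.54% of all genes), and 9 and 1 after doxorubicin (4.52% and 4.17%). The one that was lower was SHISA5, a protein of the endoplasmic reticulum, at 9.45 ± 3.21 against 46.5 ± 9.57 normalized CPM untreated. IGFBP3, a binding protein of insulin-like growth factors, had the largest fold change of this list (2.83 untreated and 3.84 after doxorubicin).

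Finally, the 10 genes were averaged into one profile over the 16 libraries, each centred on its own mean log2 value. BAX lay closest to this profile, with a root mean square difference of 0.115 on the log2 scale, followed by TP53INP1 (0.148) and TNFRSF10B (0.163). APAF1 (0.574), FAS (0.543), PMAIP1 (0.541) and TNFRSF10A (0.535) lay farthest. Outside the 10 genes, PLXNB2, a plexin receptor, had the most similar profile of 15315 genes compared (0.103), at 271 ± 18.4, 351 ± 27.0, 618 ± 105 and 782 ± 54.3 normalized CPM in untreated Scr, untreated KO, Scr doxo and KO doxo. SLC12A4, an ion cotransporter (0.126), SESN1, a p53 target of the sestrin family (0.131), AGRN, a proteoglycan (0.156) and TSPAN11 (0.169) followed. SESN1 had 33.4 ± 3.30 and 43.5 ± 3.91 normalized CPM in untreated Scr and KO and 66.1 ± 12.3 and 105.7 ± 10.0 after doxorubicin.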

How the data were processed

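Per the labels, polyadenylated RNA was made into libraries with a directional kit. The submitters' processing notes name bcl2fastq, HISAT2 2.1.0, HTSeq, edgeR and GRCh38, without roles. How strand was used in counting is not given in the sources used here. The deposited values are a signal, counts the authors normalized with edgeR (normalized CPM). Whole reads were recovered from them for 100% of values, within a tolerance of 0.001 reads. Factors implied by both tables lay between 0.974 and 1.03, and TMM recomputed over the 16 libraries differed from them by at most 1.02%, so the tables were taken as normalized together. Columns of the authors' own comparisons (log2 fold changes, p-values and q-values) were not used, and 0 columns of library values were left unassigned.

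limma 3.58.1 (R 4.3.3, abundance trend) was fitted on log2(normalized CPM + 1), so that changes of low genes are understated. The filter asked for 1 normalized CPM or more in 4 or more libraries, over 8 libraries for KO against Scr and over 16 for doxorubicin and the interaction, with Benjamini-Hochberg adjustment over all genes tested at 0.05. Libraries of a clone enter as independent replicates. The methods of the study call the replicates of a clone biological, and the labels do not say whether they were separate cultures, so p-values measure the spread between these libraries. The replicate pairs differed by more than counting noise (chi-square per gene between 7.44 and 15.6 over 8 pairs). The comparisons share groups of libraries and are not independent of each other. Exact permutation tests numbered 40 and were not adjusted. Gene models were those of GENCODE 29, promoter windows those of RefSeq. Alternatives were no filter, pseudocounts of 0.1 and 5, edgeR 4.0.16 quasi-likelihood and DESeq2 1.42.0 on recovered reads, library size alone, a replicate block, the clone as a block, each library and each clone left out and, chosen after seeing the data, TMM recomputed. The genes, the lists and the rules for naming genes (all 10, TRPM2, up to 4 called genes of largest change per list and comparison, and the 5 genes most similar to the mean profile) were chosen with earlier results of these data known. ACTA2, RPLP2, RHOBTB2, BAK1, FADD, VIM, TWIST1, DBH, HAND2, TH and KDR are named outside that rule, with their values already known. Results for some genes of the lists are not reported here.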

Additional observations from a re-analysis of the deposited data

Results flagged for a closer look

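In 44 groups of 4 libraries, the 10 genes and TRPM2 in 4 groups each, the lowest or highest library was set against the others with Dixon's test, which chance passes in about 1 of 20 groups. There were 2 that passed. APAF1 in untreated Scr was 46.5 normalized CPM in Scr16 replicate 2, below 62.2, 63.0 and 64.7 in the other libraries. Without this library, the log2 fold change of APAF1 in untreated KO against Scr was -0.04 instead of 0.07. AEN in untreated KO was 86.7 normalized CPM in KO28 replicate 2, above 73.4, 71.3 and 70.9. AEN stayed called higher in untreated KO without it. The same library held the highest BAX, PMAIP1 and PIDD1 values of its group.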

How the results depend on the processing

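Over the 1048 combinations of a gene, a comparison and an alternative setting, 978 kept direction and side of the threshold, 34 lost the call, 7 gained one and 29 changed sign, the last all in results that were not called. Between genotypes without treatment, 695 genes passed, and 368 with no filter, 330 without clone Scr13 and 327 without clone Scr16. Of the 10 genes, 5 passed, and 0 with no filter or without Scr16, 2 without KO28, and between 1 and 5 with each library left out (1 without Scr16 replicate 1). After doxorubicin, 1266 genes passed, and 510 without clone KO11, 575 without KO28 and between 814 and 1314 with each library left out. No filter left 4 of the 10 genes (adjusted p of FAS 0.0564 and of PIDD1 0.0577, limma). With doxorubicin, 1764 genes passed in Scr and 2564 in KO, and 452 without clone Scr13, 781 without Scr16, 856 without KO11 and 1320 without KO28, settings that leave 2 libraries a group. The interaction called 3 genes, and 5 with no filter or without Scr13, 1 at pseudocount 0.1 or without KO28, 12 at pseudocount 5, 31 by DESeq2, 0 without KO11 or Scr16, and between 1 and 4 with each library left out, and none of the 10 genes in any of these.

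With the replicate number as a block, the interaction called 7 genes and AEN passed after doxorubicin (adjusted p = 0.0498, limma), and no other call of the 10 genes changed. Deviations from the group means of libraries of the same clone and number correlated between -0.037 and 0.222 over 8 pairs (median 0.058). For the same clone and different numbers, the median over 8 pairs was 0.019. So few pairs cannot show whether the numbers pair the libraries. Taking the clone as a block changed no call of the 10 genes. Between genotypes this was a random block, with an estimated correlation of -0.0041 without treatment and -0.099 after doxorubicin. With it, 1510 genes instead of 1266 passed after doxorubicin. At such correlations, the block cannot show whether the calls depend on the clones.

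Signs changed as follows, as log2 values, and the cause was not tested. APAF1 between genotypes without treatment lay between -0.036 (without Scr16 replicate 2) and 0.18 with each library left out, and came to -0.13 without KO11 and -0.021 without Scr16, and after doxorubicin to -0.0062 without KO11 and -0.087 without Scr16. TNFRSF10A after doxorubicin came to -0.051 without Scr16. The change of PMAIP1 with doxorubicin in Scr was 0.012 by edgeR, 0.017 by DESeq2, 0.16 without Scr16 and between -0.17 and 0.11 with each library left out (above 0 without Scr13 untreated replicate 2 or Scr16 doxo replicate 1). The interaction of APAF1 was 0.0033 with TMM recomputed, 0.12 without KO11, 0.060 without Scr13 and between -0.11 and 0.11 with each library left out. That of TNFRSF10A was -0.37 at pseudocount 0.1, -1.0001 by edgeR, -1.04 by DESeq2, -0.25 without Scr16, -0.36 without KO28 and between -0.15 and 0.41 with each library left out, and that of AEN was 0.035 without KO28. Depth limited FAS and TNFRSF10A most, with at most 39 reads in any untreated library. Each genotype rests on 2 clones, so that genotype and clone cannot be fully told apart.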
